A study of Sus scrofa with 21 samples.

Results

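The genes described here are 54 genes of fatty acid and cholesterol metabolism, grouped by role into mitochondrial fatty acid oxidation, acyl-CoA activation, fatty acid synthesis, storage and uptake, cholesterol synthesis, and cholesterol transport. A gene was counted as measured where the array annotation gave its symbol to at least 1 probe, which held for 51 of the 54 genes and 167 probes. After the 25% of probes with the lowest mean were removed, 49 of the 54 genes were tested, among 35578 gene names tested in all. ECI1 (an isomerase of unsaturated acyl-CoA), ACOT7 (an acyl-CoA thioesterase) and DGAT1 (an acyltransferase of triglyceride synthesis) had no probe under their symbol. DHCR7 and IDI1, enzymes of cholesterol synthesis, had 1 probe each, well above background on 0 of 21 arrays, and were removed as dim.

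The values came from whole blood of pigs, hybridised to a one-colour Agilent pig array with probes of 60 bases, 1 array per animal. The DD group was 10 pigs of the SLAdd line, minipigs kept inbred and homozygous at the swine leukocyte antigen locus, and the LW group was 11 Large White pigs, used as controls. All were 60 days old and ate a standard diet ad libitum, and they came from 5 DD and 6 LW litters, so that some animals are littermates. Of 24 animals with arrays, 3 arrays had been removed by the authors as outliers, and the 21 that remained lay on 3 chips that each held both breeds. The groups differ in breed, so every trait in which the lines differ, body size included, is part of the comparison. In whole blood, fewer cells of a type and less RNA per cell cannot be told apart. All differences are DD minus LW on a log2 scale, adjusted p-values are from limma with Benjamini-Hochberg adjustment over all 35578 gene names, and "called" means an adjusted p below 0.05. The values given for animals are log2 values after removal of the chip effect.

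Fatty acids are activated to acyl-CoA, carried into mitochondria by the carnitine palmitoyltransferases and shortened by rounds of dehydrogenation, hydration, oxidation and thiolysis. Excess fatty acid is esterified to glycerol and stored as triglyceride in lipid droplets, from which lipases release it. Cholesterol is made from acetyl-CoA by the mevalonate pathway, and cells export it through ABC transporters to lipoproteins. In blood, monocytes, granulocytes, lymphocytes, platelets and young red cells all carry parts of this machinery.

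A value of an array gene is the signal of its probes, so the sequences behind the main results are shown here. They are printed 5′ to 3′ in the orientation that the array files give, and show probes of 6 of the called genes. Whether a probe lies within the coding sequence was not checked against an annotation, and whether its bases match both breeds was not checked. For CD36 and DGAT2 more than 1 probe is shown, because their probes differed in size of the difference or shared sequence. The CD36 probe at base 399 is shown because its difference was small and did not pass the test. Capitals mark an ATG in that probe and, in the DGAT2 probes, the 27 bases that overlapping probes have in common. Numbers give the first base of the probe in its transcript record, where the files give one. Gene positions are those of RefSeq on the Sscrofa11.1 assembly, which the study's methods used to annotate the array, and the places of the probes in the genome were not worked out here.
AGPAT3, base 289: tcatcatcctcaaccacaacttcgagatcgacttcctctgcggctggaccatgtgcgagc
CD36, base 399: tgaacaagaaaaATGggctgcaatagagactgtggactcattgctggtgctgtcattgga
CD36, base 834: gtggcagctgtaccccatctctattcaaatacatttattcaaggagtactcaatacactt
DGAT2, base 508: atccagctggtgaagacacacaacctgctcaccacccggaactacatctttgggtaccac
DGAT2, base 759: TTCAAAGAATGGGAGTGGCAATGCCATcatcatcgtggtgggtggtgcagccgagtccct
DGAT2, no position given: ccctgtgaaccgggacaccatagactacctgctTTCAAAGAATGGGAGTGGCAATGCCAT
PNPLA2, base 1110: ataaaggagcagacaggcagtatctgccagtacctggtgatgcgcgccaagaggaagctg
ACADL, base 1192: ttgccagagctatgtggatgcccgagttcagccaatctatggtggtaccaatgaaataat
ETFA, base 486: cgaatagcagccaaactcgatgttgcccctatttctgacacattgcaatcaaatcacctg
Over the 149 probes kept, 24 pairs in 15 genes shared a run of at least 20 bases, so probes of a gene are not independent measurements.

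Of the 49 genes tested, 8 were called. The oxidation genes ACADL and ETFA and the cholesterol exporter ABCA1 were lower in DD. The triglyceride and phospholipid genes AGPAT3 and DGAT2, the lipase PNPLA2, the fatty acid receptor CD36 and the apolipoprotein APOE were higher in DD. Thus 3 of the 49 genes (6.12%) were called lower, beside 9.57% of all gene names, and 5 (10.2%) were called higher, beside 11.4% of all gene names. Both shares lay below those of the whole array, so these counts set the genes apart from others in neither direction. Over all gene names 54.3% of the calls were higher in DD, which became 69.3% with scaling to the 75th percentile and 69.0% with cyclic loess in place of quantile normalization. This share was 45.9% when only the 8625 features with a RefSeq symbol were tested. The difference was negative for 32 genes and positive for 17, with a median of -0.13. The median was -0.04 over all gene names and -0.07 over features with a RefSeq symbol. Unadjusted limma p-values below 0.05 were found for 16 of the 49 genes, beside 13058 of all 35578 gene names. Single arrays weighed on these counts. Without animal DD_06, the brightest DD array, 13 of the 49 were called, 8 of them lower, beside 33.0% of all gene names. Of those calls over all gene names, 51.4% were higher in DD.

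**Figure D1:**
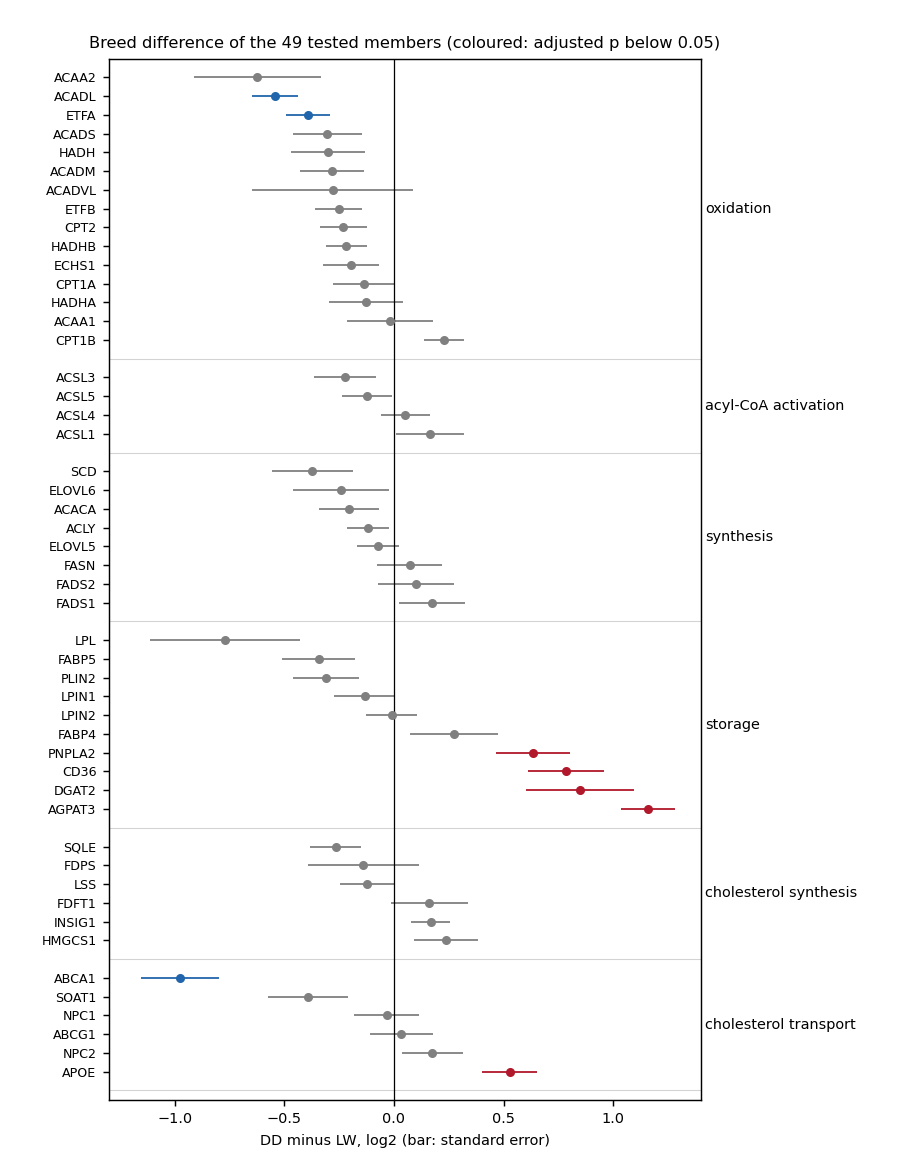
Breed difference of each of the 49 tested genes, DD minus LW on a log2 scale on the horizontal axis, with bars of 1 standard error and genes sorted within the 6 groups. Coloured points are the 8 genes called at an adjusted p below 0.05 (blue lower in DD, red higher in DD), and 14 of the 15 oxidation genes lie left of 0.

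The arrays of the breeds differed in brightness, which touches every result below. Brightness, taken as the log2 value at the 75th percentile of an array's processed signals, ranged from 6.56 to 8.49 in DD (median 7.64) and from 7.37 to 8.62 in LW (median 8.41). Between 44.7% and 61.0% of probes were well above background on DD arrays, and between 53.0% and 63.8% on LW arrays. The gap was widest on chip 3, where the mean brightness was 7.09 in DD and 8.36 in LW, and narrowest on chip 1, where it was 7.95 and 8.02. With brightness as a covariate, 2.19% of all gene names were called and 1 of the 49 genes, AGPAT3. Without chip 3, 1.51% of all gene names were called and again AGPAT3 alone of the 49. The part of brightness in the other 7 calls was not tested further, and each is given below with its value within each chip.

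Most oxidation genes had a negative difference, and few of them passed the test. Of 15 tested, 14 were negative and 1, CPT1B, was positive. With scaling to the 75th percentile or cyclic loess 13 of the 15 were negative, with medians of -0.18 and -0.15. With the probe of highest mean for each gene, or with brightness as a covariate, 12 of the 15 were negative. Without chip 2, 11 were negative, with a median of -0.14. With the settings of the report the median difference was -0.25, beside -0.04 over all gene names and -0.07 over features with a RefSeq symbol. The median of the 15 was -0.08, -0.36 and -0.21 on chips 1, 2 and 3. Only 2 of the 15 were called, both lower, beside 9.57% of all gene names called lower, and 13 did not pass the test. With brightness as a covariate the median was -0.08 and 0 of the 15 were called. The mean of the 15 genes, each centred on its own mean, ranged from -0.59 to 0.18 in DD (median -0.12) and from -0.16 to 0.38 in LW (median 0.11). The ranges overlapped. Without animal DD_16, which held the lowest mean, 12 of the 15 were negative and the median was -0.22. Without animal DD_06, 14 were negative, the median was -0.29 and 6 of the 15 were called lower: ACADL, ETFA, ACADM, CPT2, ETFB and HADHB. In that fit 33.0% of all gene names were called, and 51.4% of those calls were higher in DD. The median over all gene names was then -0.06.

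ACADL, the acyl-CoA dehydrogenase of long chains, catalyses the first step of the oxidation spiral, and its gene lies on chromosome 15 from 112935631 to 112969381 of Sscrofa11.1. Its values ran from 6.76 to 7.51 in DD (median 7.34) and from 7.47 to 8.02 in LW (median 7.80). In DD, 7 of the 10 animals lay below every LW animal and the other 3 lay within the lower end of the LW range. The difference was -0.54 (SE 0.10, n = 10 and 11, limma adjusted p = 0.00206), a 1.46-fold lower level. It was -0.32, -0.47 and -0.89 on chips 1, 2 and 3. All 6 probes were lower in DD, from -0.61 to -0.49, among them the probe at base 1192 shown above (-0.56, SE 0.10). With brightness as a covariate it was -0.33 with an adjusted p of 0.173.

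ETFA encodes a subunit of the electron transfer flavoprotein, which takes electrons from the acyl-CoA dehydrogenases, and lies on chromosome 7 from 56450508 to 56540275 of Sscrofa11.1. Its values ran from 7.27 to 7.98 in DD (median 7.56) and from 7.72 to 8.37 in LW (median 7.99). In DD, 8 animals lay below all LW animals. The difference was -0.39 (SE 0.10, limma adjusted p = 0.0155), with -0.30, -0.32 and -0.59 on the 3 chips. The call was lost without animal LW_18 (-0.37, limma adjusted p = 0.0514) and with brightness as a covariate (-0.27, limma adjusted p = 0.392). All 8 probes were lower in DD, from -0.48 to -0.29. ETFB, the partner subunit, differed by -0.25 (SE 0.11, limma adjusted p = 0.0928) and was not called.

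The carnitine palmitoyltransferases bring acyl groups into mitochondria, and 0 of the 3 were called. CPT1A, the rate-controlling form outside muscle, ranged from 5.64 to 6.80 in DD (median 6.05) and from 5.72 to 6.53 in LW (median 6.38), with 2 DD animals below and 2 above all LW animals. Its difference was -0.14 (SE 0.14, limma adjusted p = 0.503) and turned from 0.19 on chip 1 to -0.25 and -0.37 on chips 2 and 3. CPT1B, the muscle form, differed by 0.23 (SE 0.09, limma adjusted p = 0.0750), and 1 of its 5 probes carries a description that also names choline kinase beta. It was called higher under 5 of the 17 alternatives: values re-computed from the scanner files, a normexp offset of 50, scaling to the 75th percentile, cyclic loess, and without chip 2 (lowest limma adjusted p = 0.0132). CPT2, of the inner membrane, differed by -0.23 (SE 0.11) and was called without animal DD_06 (limma adjusted p = 0.0356).

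The other genes of the oxidation spiral were not called. Among the dehydrogenases of shorter and very long chains, ACADM differed by -0.28 (SE 0.15), ACADS by -0.30 (SE 0.16) and ACADVL by -0.28 (SE 0.37). The hydratase, hydroxyacyl dehydrogenase and thiolase genes HADHA, HADHB, HADH, ECHS1, ACAA1 and ACAA2 lay between -0.62 and -0.02. ACAA2, the mitochondrial thiolase, had the lowest value of these with a standard error of 0.29. The 4 probes of ECHS1, the short-chain enoyl-CoA hydratase, disagreed: the probe at base 991 differed by -0.88 (SE 0.14, limma adjusted p = 2.16e-04 over all probes), and the other 3 lay between -0.04 and 0.09. The probe at base 991 shares a run of 36 bases with 1 of these 3, which gave 0.05 (SE 0.14).

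T cell markers had negative differences too: 8 of 8 were negative, 3 of them called (CD3G at -0.64, CD3D at -0.58 and CD247). Their median was -0.29, with -0.11, -0.56 and -0.45 on the 3 chips. With brightness as a covariate the median was -0.10 and 0 were called. The mean of the 8 markers ran from 9.00 to 10.02 in DD and from 9.63 to 10.27 in LW. All 8 were well above background on 21 arrays. The part of T cell numbers in the oxidation genes was not tested.

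**Figure D2:**
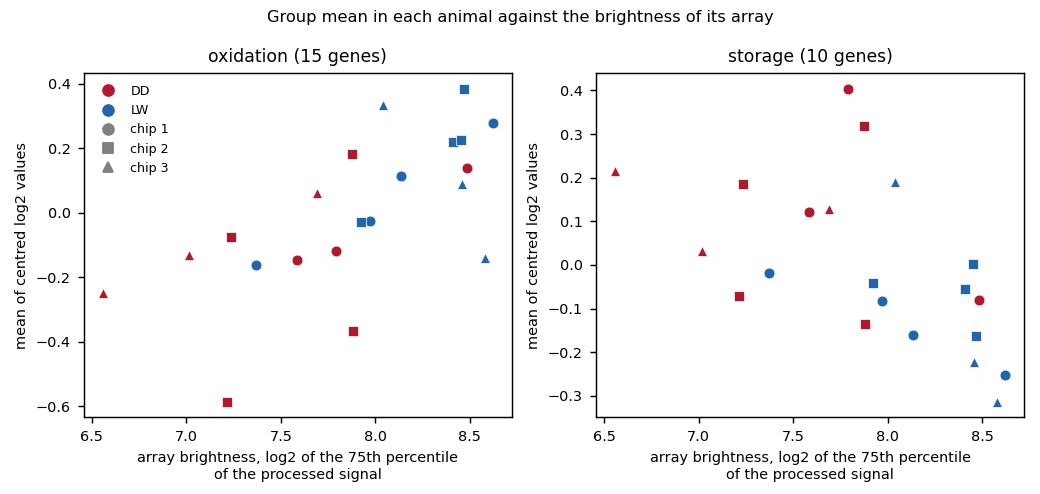
Mean of the centred log2 values of the 15 oxidation genes (left) and the 10 storage genes (right) in each animal, against the brightness of its array (log2 signal at the 75th percentile). DD animals are red and LW animals blue, with a marker shape for each chip, and most DD arrays lie at lower brightness than the LW arrays.

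Acyl-CoA activation was measured by 4 long-chain acyl-CoA synthetases, and 0 of them were called. ACSL1 differed by 0.17 (SE 0.15), ACSL3 by -0.22 (SE 0.14), ACSL4 by 0.05 (SE 0.11) and ACSL5 by -0.12 (SE 0.11). The median was -0.04, the same as over all gene names to 2 decimals. The ACSL4 probe at base 4197 differed by 0.54 (SE 0.17), while the other 6 probes lay between -0.23 and 0.14.

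Fatty acid synthesis showed no called gene among 8 tested. Differences were negative for 5 and positive for 3, with a median of -0.10 and with 0.06, -0.18 and -0.29 on the 3 chips. FASN, the fatty acid synthase, ranged from 7.48 to 8.60 in DD (median 8.13) and from 7.17 to 8.47 in LW (median 7.97), with a difference of 0.07 (SE 0.15, limma adjusted p = 0.756). The ranges overlapped almost wholly.

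SCD, the stearoyl-CoA desaturase that makes monounsaturated fatty acids, ranged from 5.77 to 7.66 in DD (median 6.54) and from 6.08 to 7.66 in LW (median 7.01). Its difference was -0.37 (SE 0.19, limma adjusted p = 0.149). All 11 probes had a negative difference, yet chips 1, 2 and 3 gave 0.22, -0.39 and -1.02, and it was 0.05 with brightness as a covariate. Without animal DD_08, which held the highest value, it was -0.52 (SE 0.17) and was called (limma adjusted p = 0.0404).

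ACACA, the acetyl-CoA carboxylase that commits carbon to fatty acids, was dim: its best probe was well above background on 3 DD and 7 LW arrays. It ranged from 3.33 to 4.59 in DD (median 4.26) and from 4.02 to 4.87 in LW (median 4.43), with a difference of -0.21 (SE 0.14, limma adjusted p = 0.283). ACLY, which supplies cytosolic acetyl-CoA, differed by -0.12 (SE 0.10) and ELOVL5, an elongase, by -0.07 (SE 0.10). ELOVL6 and the desaturases FADS1 and FADS2 were dim. ELOVL6 was well above background on 5 arrays of each breed, FADS1 on 2 of each, and FADS2 on 1 DD and 0 LW arrays, and no size or direction is given for FADS2.

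Storage and uptake held the largest positive differences. Of 10 genes tested, 5 were negative and 5 positive. The 4 called genes were all higher in DD (AGPAT3, DGAT2, PNPLA2 and CD36), beside 11.4% of all gene names called higher. The other 6 did not pass the test. The median was 0.13, with 0.28, 0.14 and 0.01 on the 3 chips, and 0.24 with brightness as a covariate. The group mean ranged from -0.13 to 0.40 in DD (median 0.12) and from -0.31 to 0.19 in LW (median -0.08).

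AGPAT3, an acyltransferase that adds a fatty acid to lysophosphatidic acid on the way to phospholipids and triglycerides, had the largest difference of the 49 genes. It lies on chromosome 13 from 206803219 to 206906363 of Sscrofa11.1. Its values ran from 7.08 to 8.22 in DD (median 7.40) and from 6.00 to 6.70 in LW (median 6.28). All 10 DD animals lay above all 11 LW animals, and it was the only one of the 49 genes whose breeds did not overlap, against 0.675% of all gene names. The difference was 1.16 (SE 0.12, limma adjusted p = 2.92e-06), a 2.23-fold higher level.

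The AGPAT3 difference was present on each chip, with 1.14, 0.90 and 1.53. All 3 probes were higher in DD: 1.16 (SE 0.15) at base 40, 0.84 (SE 0.15) at base 289 and 1.48 (SE 0.19) for a probe designed on a separate liver cDNA clone. With brightness as a covariate the difference was 0.95 (limma adjusted p = 8.27e-04), and without chip 3 it was 1.01 (limma adjusted p = 7.38e-04). The highest DD animal, at 8.22, stood apart from the other 9.

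DGAT2 (chromosome 9, 10032163 to 10066082 of Sscrofa11.1) makes triglyceride from diacylglycerol. Its values ran from 6.66 to 8.70 in DD (median 8.09) and from 6.22 to 7.95 in LW (median 7.02). In DD, 5 animals lay above all LW animals and the others lay within the LW range, so the DD animals were spread widely. The difference was 0.85 (SE 0.25, limma adjusted p = 0.0249), with 0.55, 0.49 and 1.66 on the 3 chips. The call was lost when animal DD_21, DD_23, LW_18 or LW_22 was left out, with adjusted p-values from 0.0519 to 0.0781 and differences from 0.75 to 0.79, and with brightness as a covariate (0.47, limma adjusted p = 0.697). The probe at base 508 gave 0.95 (SE 0.25) and that at base 759 gave 0.91 (SE 0.23). The probe that shares 27 bases with the latter gave 0.68 (SE 0.45), which did not pass the test over all probes (limma adjusted p = 0.282).

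PNPLA2, the adipose triglyceride lipase, performs the first step of triglyceride breakdown, and its gene lies on chromosome 2 from 513065 to 517962 of Sscrofa11.1. Its values ran from 7.89 to 9.12 in DD (median 8.66) and from 7.58 to 8.93 in LW (median 7.94). In DD, 2 animals lay above all LW animals, and the breeds overlapped. The difference was 0.63 (SE 0.17, limma adjusted p = 0.0173), with 0.33, 0.53 and 1.11 on the 3 chips, and its 3 probes ranged from 0.53 to 0.75. The value was 0.24 with brightness as a covariate (limma adjusted p = 0.743).

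CD36 (chromosome 9, 99685748 to 99782296 of Sscrofa11.1) is a receptor for long-chain fatty acids and lipoproteins on platelets, monocytes and red cell precursors. It ranged from 4.41 to 6.35 in DD (median 5.51) and from 4.33 to 5.21 in LW (median 4.76). In DD, 9 of the 10 animals lay above all LW animals and 1 lay among the lowest LW animals. The difference was 0.78 (SE 0.17, limma adjusted p = 0.00551), with 0.42, 0.77 and 1.22 on the 3 chips. The value was 0.36 with brightness as a covariate (limma adjusted p = 0.450). Its 5 probes differed in size. The probe at base 399 gave 0.14 (SE 0.27), that at base 834 gave 0.64 (SE 0.15), and those at bases 1969 and 2173 gave 1.00 (SE 0.23) and 1.30 (SE 0.24). A probe with no position given gave 0.85 (SE 0.20). Of the 5 probes only the probe at base 2173 was well above background on all 21 arrays, and that at base 399 was so on 2 DD and 4 LW arrays.

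Markers of other blood cell types, among them the cells named above for CD36, did not all move one way. Of 7 erythroid markers 5 had a positive difference, with a median of 0.31 (0.22, -0.02 and 1.23 on the 3 chips) and 1 called, EPB42 at 1.06. Their mean ran from 9.84 to 11.4 in DD and from 9.47 to 10.8 in LW. Of 6 platelet markers 5 had a negative difference, with a median of -0.23 and 1 called, PPBP at -0.94. Of 6 monocyte markers 4 had a positive difference, with a median of 0.06 and 1 called, CD163, which was lower at -0.72. Of 7 granulocyte markers 4 had a positive difference, with a median of 0.17 and 1 called, ARG1 at 0.67, and all 4 B cell markers had a positive difference, with a median of 0.20 and 0 called. With brightness as a covariate the medians were 0.01 (erythroid), -0.83 (platelet), 0.07 (monocyte), -0.08 (granulocyte) and 0.70 (B cell). Only 1 of these markers, a platelet marker, was then called. The part of these cell types in the CD36, DGAT2 and PNPLA2 differences was not tested.

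PLIN2, a coat protein of lipid droplets, ranged from 5.38 to 6.50 in DD (median 5.89) and from 5.52 to 6.75 in LW (median 6.29). Its difference was -0.31 (SE 0.15, limma adjusted p = 0.142), with -0.50, -0.41 and 0.03 on the 3 chips. The phosphatidate phosphatases LPIN1 and LPIN2 differed by -0.13 (SE 0.14) and -0.01 (SE 0.12), and FABP5, a cytosolic fatty acid carrier, by -0.34 (SE 0.17). FABP4, the fatty acid carrier of adipocytes and macrophages, was well above background on 1 DD and 0 LW arrays, and no size or direction is given. LPL, the lipoprotein lipase of the vessel wall, was well above background on 1 DD and 3 LW arrays. Its difference of -0.77 (SE 0.34) was not called and ran from 0.22 on chip 1 to -2.05 on chip 3. The highest LW animal, LW_24 at 7.61, stood above the next at 5.04, and without it the difference was -0.43. Without animal DD_08 it was -0.98 and was called (limma adjusted p = 0.0485).

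**Figure D3:**
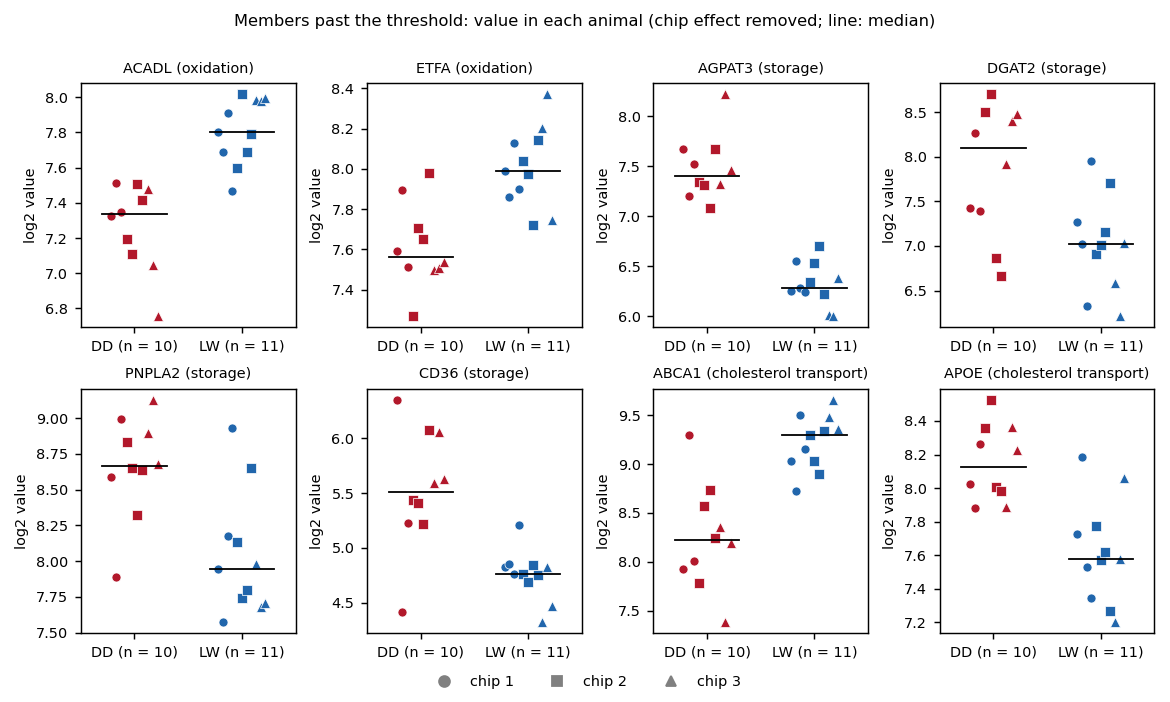
Log2 value of each animal, after removal of the chip effect, for the 8 called genes, with DD (n = 10) in red and LW (n = 11) in blue, marker shapes for chips and a line at the median. AGPAT3 is the only gene whose breeds do not overlap, and 1 DD animal lies within the LW range for CD36.

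Cholesterol synthesis showed no called gene. Of 6 genes tested 3 were negative and 3 positive, with a median of 0.02. SQLE, the squalene epoxidase, ranged from 7.04 to 7.95 in DD (median 7.52) and from 7.28 to 8.04 in LW (median 7.77), with a difference of -0.27 (SE 0.12, limma adjusted p = 0.103). The 3 chips gave 0.07, -0.31 and -0.59. HMGCS1, the synthase that opens the mevalonate pathway, was not well above background on any of the 21 arrays. Its signal ranged from 3.75 to 4.84 in DD (median 4.49) and from 3.67 to 4.62 in LW (median 4.16), and no direction is given. FDFT1, the squalene synthase, differed by 0.16 (SE 0.18) and FDPS, which makes farnesyl diphosphate, by -0.14 (SE 0.25). LSS, the lanosterol synthase, was well above background on 0 DD and 3 LW arrays, and no size or direction is given.

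INSIG1, the protein of the endoplasmic reticulum that holds back the activation of sterol-responsive transcription, ranged from 8.05 to 8.58 in DD (median 8.13) and from 7.80 to 8.25 in LW (median 8.08). Its mean difference was 0.17 (SE 0.09, limma adjusted p = 0.187). This mean joined probes of opposite sign. The gene was called under 3 alternatives: its brighter probe alone, a normexp offset of 50, and cyclic loess. The probe at base 818 was higher in DD by 0.65 (SE 0.11, limma adjusted p = 7.50e-04 over all probes), and the probe at base 1651 gave -0.32 (SE 0.14, limma adjusted p = 0.0941).

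**Figure D4:**
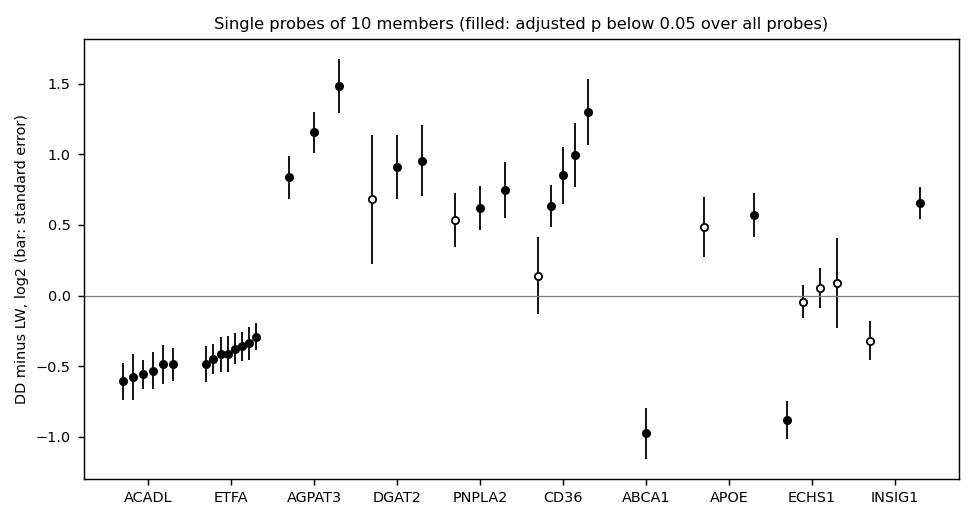
Breed difference of each kept probe, DD minus LW on a log2 scale with bars of 1 standard error, for the 8 called genes and for ECHS1 and INSIG1. Filled points have an adjusted p below 0.05 over all probes, and the probes of ACADL, ETFA and AGPAT3 agree in direction while those of INSIG1 lie on both sides of 0.

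Cholesterol transport held 1 gene called lower and 1 called higher among 6 tested, with a median of 0.00. Over all gene names 9.57% were called lower and 11.4% higher. ABCA1, which exports cholesterol and phospholipid to apolipoprotein A-I, had the most negative difference of the 49 genes and lies on chromosome 1 from 246144277 to 246278492 of Sscrofa11.1. Its values ran from 7.39 to 9.30 in DD (median 8.22) and from 8.73 to 9.65 in LW (median 9.30). In DD, 8 animals lay below all LW animals and 1 lay close to the LW median. The difference was -0.98 (SE 0.18, limma adjusted p = 0.00136), a 1.97-fold lower signal, with -0.69, -0.81 and -1.52 on the 3 chips. It rests on 1 probe, whose match to each breed was not checked. With brightness as a covariate it was -0.52 with an adjusted p of 0.167.

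APOE (chromosome 6, 51373113 to 51375333 of Sscrofa11.1) is an apolipoprotein that macrophages release and that binds lipoprotein receptors. It ranged from 7.88 to 8.52 in DD (median 8.13) and from 7.20 to 8.18 in LW (median 7.58). In DD, 5 animals lay above all LW animals. The difference was 0.53 (SE 0.12, limma adjusted p = 0.00927), with 0.36, 0.66 and 0.54 on the 3 chips. Of its 2 probes, 1 was well above background on all 21 arrays and gave 0.57 (SE 0.16), and the other was so on 3 DD and 1 LW arrays and gave 0.49 (SE 0.22). Without chip 3 the gene's difference was 0.52 (limma adjusted p = 0.145), and with brightness as a covariate it was 0.44 (limma adjusted p = 0.206).

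The other transport genes were not called. SOAT1, which esterifies cholesterol, differed by -0.39 (SE 0.18), and the lysosomal cholesterol exporters NPC1 and NPC2 by -0.03 (SE 0.15) and 0.17 (SE 0.14). ABCG1, a partner of ABCA1 in export, was not well above background on any array.

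Other genes of the same pathways, taken from a list of 115 further genes, were read from the same fit. Of 75 tested, 47 were negative and 28 positive, with a median of -0.12, and 11 (14.7%) were called lower and 5 (6.67%) higher. Over all gene names 54.8% were negative, 9.57% were called lower and 11.4% higher. Among the 8625 features with a RefSeq symbol, 24.6% were called, 45.9% of those calls were higher in DD, and the median was -0.07. Among 10 further cholesterol transport genes, STARD4, a cytosolic sterol carrier, differed by -0.88 (SE 0.11, limma adjusted p = 1.33e-05) with -0.79, -0.75 and -1.16 on the 3 chips, and LCAT, the plasma enzyme that esterifies cholesterol, was higher by 0.97 with 0.00, 1.12 and 1.85. Among 11 further cholesterol synthesis genes 1 was called, HSD17B7, at -0.79 (SE 0.15) with -0.75, -0.77 and -0.89 on the 3 chips. With brightness as a covariate 1 of the 75 further genes was called, a cholesterol transport gene, and the median of the 75 was 0.003.

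Among 21 further oxidation genes 11 were negative and 10 positive, with 3 called lower and 2 higher. The lowest adjusted p-values were those of ACOX3, a peroxisomal oxidase, at -0.64 (SE 0.14) and ACAT1, the mitochondrial acetoacetyl-CoA thiolase, at -0.44 (SE 0.11). Of 8 further synthesis genes 7 were negative, and 3 were called lower, among them MCAT, of mitochondrial fatty acid synthesis, at -0.60 (SE 0.13) and SCD5, a further desaturase, which was well above background on 0 DD and 4 LW arrays, so that no size is given. Of 15 further storage genes 11 were negative and 4 positive, with a median of -0.23. Of these 15, 3 were called lower, among them GPAM, the mitochondrial acyltransferase that starts glycerolipid synthesis. GPAM was well above background on 0 DD and 5 LW arrays. The 1 called higher was LIPE, the hormone-sensitive lipase, at 0.39 (SE 0.11). ACSF2 was the only one of 10 further activation genes called, at 0.86 (SE 0.25), with 0.07 on chip 1 and 2.12 on chip 3.

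Tissue markers were looked at beside these results. Of the 7 liver markers on the array, 2 (APOB and FGA) were well above background on 0 of 21 arrays, TTR and CYP2E1 on 1 each, SERPINA1 on 3 and ALB on 14. APOA2 was so on all 21 and was called higher in DD at 0.59. Of 6 adipocyte markers, CIDEC was well above background on 1 array, ADIPOQ on 3, CIDEA on 5, PLIN1 on 19, and LEP and LIPE on all 21.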

How the data were processed

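Whole blood RNA (PAXgene) was labelled with Cy3 and hybridised to one-colour arrays, read with Agilent Feature Extraction 10.7.3.1 per the submitters' processing notes. The scanner files hold the deposited intensity of each spot and its flags, with 0 saturated spots. The deposited log2 values were made by the authors with normexp background correction, log2 scaling and quantile normalization in limma, after removal of 3 of 24 arrays. Precision is set by the number of arrays, and intensities have no read depth. The deposited log2 matrix (60305 probes) was used. The probes with the lowest mean (25%) were removed, leaving 45228, and the kept probes of a gene name were averaged, giving 35578 names. Quantile normalization gives every array the same distribution, so all differences are relative to the other probes, and a dim array raises noise at low values. The symbols are those of the array annotation and can be old.

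Breeds were compared with limma 3.58.1 in R 4.3.3, with breed and chip as fixed effects, litter as a random block (duplicateCorrelation, consensus correlation -0.11) and eBayes, as in the study's methods, with Benjamini-Hochberg adjustment over all names. The script was tested on simulated data. Values by animal are after removeBatchEffect for chip. Probe differences are from the same fit over all probes, added after seeing the data. For a gene not well above background on any array of a breed no size was given. All called genes were named. Values by animal were given for up to 4 called genes of each group (smallest adjusted p first) and for 11 control points of the pathways (CPT1A, ACACA, FASN, SCD, PLIN2, CD36, HMGCS1, SQLE, INSIG1, ABCA1 and APOE), and up to 2 further genes or markers of a group were named by smallest adjusted p. Others were named after their values were seen, where probes disagreed or a marker was dim. The genes, groups and lists were chosen with earlier results of these data known. Alternatives were the background correction, scaling, filter, probe rule, names, litter, chip, brightness, eBayes options and each animal left out.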

Additional observations from a re-analysis of the deposited data

Results flagged for a closer look

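Among the 10 DD animals, 10 of the 49 genes tested had 1 animal that stood apart: its gap to the nearest other animal, divided by the range of the group, was above Dixon's critical value for 10 samples. For independent, normally distributed values chance alone gives about 1 such group in 20. The 49 genes share the same 10 animals and arrays, so their count cannot be set against that rate. LW, with 11 animals, was not tested. The values are log2 after removal of the chip effect.

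Animal DD_16 was far below the others for 3 oxidation genes, ACADVL at 5.93, ACADS at 6.28 and ACAA1 at 7.43. Animal DD_13 was lowest for ACAA2 at 4.13 and animal DD_23 for ACACA at 3.33. Animal DD_08 was highest for SCD at 7.66 and for FABP4 at 5.88, the latter on an array where that gene is close to background elsewhere. Animal DD_21 was highest for AGPAT3 at 8.22, DD_10 for INSIG1 at 8.58 and DD_06 for SOAT1 at 6.17. Of these 10 genes AGPAT3 alone was called.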

How the results depend on the processing

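The 8 calls kept their direction under all 17 alternatives that changed the processing or the model, and AGPAT3 was called under each (difference 0.80 to 1.48). All 8 were called under 13 of the 17. Without the chip term 4 were, without chip 2 all but PNPLA2, and without chip 3 or with brightness as a covariate AGPAT3 alone. Brightness and breed move together on these arrays, and the cause of the lost calls was not tested. Over all gene names, 7459 were called with the settings of the report. The count was 4670 with no filter on low values (more dim features tested), 1929 without the chip term, 537 without chip 3, 780 with brightness as a covariate, and 2124 of 8625 when only features with a RefSeq symbol were tested, an alternative added after seeing the data. The estimated litter correlation was negative (-0.11), which narrows the errors, and without the litter block 14.4% of gene names were called, with the same 8 of the 49 genes. The genes called lower were 3 with the settings of the report, 5 with a normexp offset of 50, 7 without chip 1, and 0 without chip 3 or with brightness. Those called higher were 5 with the settings of the report, 2 without the chip term and 1 without chip 3 or with brightness. Genes whose breeds did not overlap were 1 with the settings of the report, 6 over litter means and 4 without chip 1.

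With each animal left out in turn, 2254 to 11739 gene names, 2 to 8 genes lower, 4 to 5 genes higher and 1 to 4 non-overlapping genes were found. The lowest and highest counts over all names came without animal LW_18 and without animal DD_06. The counts of names also moved by over 1.5 times without DD_21 (3095), DD_23 (4140), LW_05 (4743), LW_12 (4770) and LW_22 (3901). Without animal DD_08, 5 of the 49 genes were called lower, and without animal LW_07, 2 did not overlap.

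Among genes that were not called, CPT1B was called under 5 alternatives and INSIG1 under 3. ETFB, FABP5, FDFT1, HADHB, LPL, SCD, SOAT1 and SQLE were each called under 1. CPT1A turned positive with 75th percentile scaling (0.057) and with brightness (0.081). FASN was -0.11 without chip 1 and ranged from -0.012 to 0.14 with 1 animal left out, below 0 without DD_08 or LW_07. With brightness ACACA was 0.017 and SCD 0.053. HMGCS1, whose signal near background gives no direction, stood at -0.10. Scaling to the 75th percentile moved the median of all gene names from -0.04 to 0.06 and that of the 49 genes from -0.13 to -0.07. The removed genes DHCR7 and IDI1, tested with no filter, and DGAT1, found only through RefSeq names, were not called. Signal near background limits FADS1, FADS2, ACACA, ELOVL6, FABP4, LPL, HMGCS1, LSS and ABCG1. No paired analysis was possible because the breeds share no animal numbers.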
